A study of Homo sapiens with 6 samples.

Results

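Deoxynucleotides are the building blocks of DNA, and their supply limits how fast a cell can copy its genome. The expression of 9 genes of this supply was compared between thyroid cancer cells with GDF15 silenced and control cells. The genes were taken by name from the deposited table, in which all 9 were found among 34738 genes. The rule used no measured value, but the 9 genes were chosen with earlier results of these data known. They were the ribonucleotide reductase subunits RRM1 and RRM2, the thymidylate enzymes TYMS, DUT and DTYMK, the deoxynucleoside kinases TK1 and DCK, and the enzymes CAD and UMPS of pyrimidine synthesis. GDF15 is a secreted cytokine of the TGF-β family. One group of cells received an siRNA directed at GDF15 (siGDF15) and the other served as control (NC). Each had 3 libraries of poly(A) RNA, and no other difference in genotype or treatment is given. Means stand with their SD over these 3 libraries (n = 3). The methods speak of negative control cells and list a negative control siRNA, whereas the deposited design speaks of a blank control, so an effect of transfection itself cannot be told apart from that of the knockdown if NC cells received no siRNA. The labels name the line KHM-5M for all 6 libraries and a legend of the study names TPC-1. Both are established thyroid cancer lines, and 1 line with 1 siRNA sequence was measured.

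Total counts were between 67569576 and 68025163 in NC and between 51738814 and 67793417 in siGDF15, the lowest being replicate 2. GDF15 itself was expressed at 22.4, 19.3 and 23.1 FPKM in NC and at 10.8, 10.5 and 10.7 FPKM in siGDF15, a log2 fold change of -0.92 (standard error 0.0792, edgeR adjusted p = 2.4e-05). Of 8 markers of the thyroid follicular lineage, PAX8 (59.1 ± 5.33 FPKM in NC against 79.4 ± 1.70 FPKM after silencing) and FOXE1 had a mean of at least 1 FPKM. TG, SLC5A5, NKX2-1 and DIO1 stayed at or under 0.219 FPKM in every library, and TSHR was not found by that name in the deposited table. The epithelial markers summed to 102 to 149 FPKM in NC and 126 to 136 FPKM in siGDF15, the fibroblast markers to 30.3 to 39.4 and 31.8 to 37.1 FPKM, the immune markers, nearly all of it CD68, to 17.9 to 19.7 and 16.6 to 18.6 FPKM, and the endothelial markers to at most 0.198 FPKM. Mitochondrially encoded genes held 6.39 to 6.78% of counts in NC and 8.53 to 9.17% in siGDF15.

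Ribonucleotide reductase removes the 2′ hydroxyl of ribonucleotides and so opens the path from RNA to DNA precursors. Thymidylate synthase adds the methyl group that distinguishes thymine from uracil, salvage kinases return free nucleosides to the pool, and the pyrimidine ring itself is built by CAD, DHODH and UMPS. Transcripts of several of these enzymes are known to be abundant in S phase and low in resting cells. All 9 genes were lower in the siGDF15 group. Each passed an adjusted p-value under 0.05 in edgeR's quasi-likelihood test over the 11867 genes with a mean of at least 1 FPKM, of which 61.4% passed in either direction, 31.4% as lower and 30% as higher. Scaling by the total count alone, with no TMM factor, took the share of higher genes among all called genes from 48.9% to 36.6%, while the same 9 members remained lower. A second threshold, a log2 fold change of 1 or more in size, was passed by 6 of the 9 (RRM2, TYMS, RRM1, TK1, DCK and DTYMK). Of all tested genes 7.81% passed both thresholds, 4.78% as lower and 3.03% as higher. The log2 fold changes of the 9 ran from -1.89 for RRM2 to -0.41 for UMPS, with a median of -1.15 beside 0.003 for all tested genes. In all 9 every siGDF15 library lay below every NC library, as it did for 42.8% of tested genes, with 25.6% the other way round. For 1 gene, 3 libraries against 3 cannot give a two-sided exact permutation p under 0.1, and each of the 9 reached that value. The 9 genes together summed to between 291 and 315 FPKM in NC and between 111 and 123 FPKM in siGDF15.

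**Figure D1:**
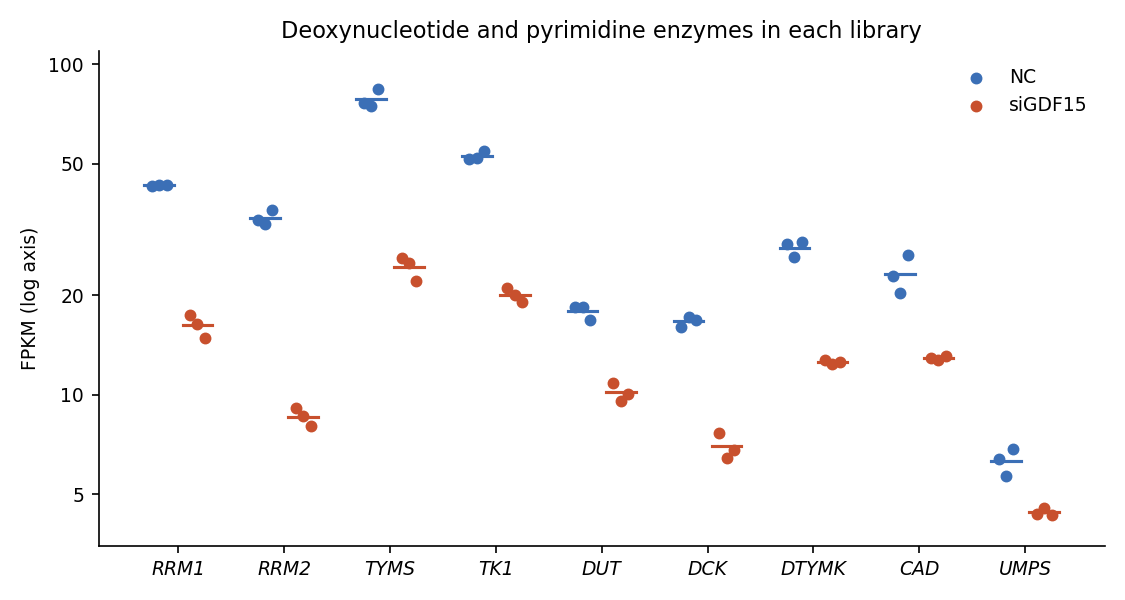
FPKM (log axis) of the 9 genes in each library, with NC in blue, siGDF15 in red, 1 point per library and a line at the mean of 3 libraries. The groups do not overlap for any gene, with the widest gap on this axis for RRM2 (33 to 36.2 FPKM in NC and 8.04 to 9.16 FPKM in siGDF15) and the narrowest for UMPS (5.68 to 6.87 and 4.34 to 4.56 FPKM).

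In a bulk sample, fewer cells in S phase and less RNA of these genes per cell cannot be told apart. A list of 10 proliferation markers moved with the enzymes: all 10 fell past both thresholds, with a median log2 fold change of -1.78 and a sum of 606 to 633 FPKM in NC and 186 to 212 FPKM in siGDF15. CDK1, the mitotic kinase, had a log2 fold change of -1.87 and TOP2A, a topoisomerase of dividing cells, of -1.89, both close to RRM2. MKI67, a nuclear protein of cycling cells, had 42.7 ± 0.518 FPKM in NC against 11.9 ± 1.17 FPKM after silencing. Their part in the result was not tested.

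The promoters of the genes were read from RefSeq (build GRCh38.p14) as windows of 300 bases, 250 before and 50 after each annotated start, which gave 14 windows for the 9 genes. Of these windows, 5 are printed here from 5′ to 3′ on the gene's strand: the gene with the largest fall (RRM2, plus strand, chr2:10122489-10122788), the pair of thymidine enzymes with large falls (TYMS, plus strand, chr18:657403-657702, and TK1, minus strand, chr17:78187003-78187302), and, for contrast, 2 genes with small falls (DUT, plus strand, chr15:48331947-48332246, and UMPS, plus strand, chr3:124730202-124730501). Where a gene has several windows, the one farthest downstream was taken, and which start was used in these cells was not measured. Capitals mark matches on either strand to the NF-Y letters CCAAT, to an E2F-type core (TTCCCGC or TTCGCGC or TTGCCGC or TTGGCGC), to a CHR-type element (TTTGAA or TTCGAA) and to TTTAAA.
RRM2: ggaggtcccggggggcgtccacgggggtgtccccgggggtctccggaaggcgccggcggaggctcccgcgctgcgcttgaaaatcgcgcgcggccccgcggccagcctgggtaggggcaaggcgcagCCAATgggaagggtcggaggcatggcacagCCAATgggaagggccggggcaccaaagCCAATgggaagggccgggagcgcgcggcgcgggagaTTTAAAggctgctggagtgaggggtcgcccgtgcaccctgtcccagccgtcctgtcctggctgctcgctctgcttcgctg
TYMS: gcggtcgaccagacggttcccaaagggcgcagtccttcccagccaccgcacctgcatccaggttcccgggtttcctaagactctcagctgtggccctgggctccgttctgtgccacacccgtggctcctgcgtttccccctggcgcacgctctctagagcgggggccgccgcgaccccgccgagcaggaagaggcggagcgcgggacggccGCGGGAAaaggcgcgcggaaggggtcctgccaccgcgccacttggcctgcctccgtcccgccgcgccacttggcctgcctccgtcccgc
TK1: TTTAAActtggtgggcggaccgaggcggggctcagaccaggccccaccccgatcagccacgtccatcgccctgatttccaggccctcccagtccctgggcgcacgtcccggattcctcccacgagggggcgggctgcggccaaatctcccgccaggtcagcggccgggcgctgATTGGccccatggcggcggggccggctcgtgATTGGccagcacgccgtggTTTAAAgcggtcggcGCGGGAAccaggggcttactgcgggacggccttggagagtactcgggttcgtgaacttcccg
DUT: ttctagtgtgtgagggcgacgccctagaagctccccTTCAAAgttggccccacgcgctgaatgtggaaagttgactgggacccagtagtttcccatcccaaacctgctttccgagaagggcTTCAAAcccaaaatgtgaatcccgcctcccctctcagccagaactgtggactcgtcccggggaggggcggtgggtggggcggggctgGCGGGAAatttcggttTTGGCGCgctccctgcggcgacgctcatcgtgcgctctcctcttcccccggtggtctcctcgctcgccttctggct
UMPS: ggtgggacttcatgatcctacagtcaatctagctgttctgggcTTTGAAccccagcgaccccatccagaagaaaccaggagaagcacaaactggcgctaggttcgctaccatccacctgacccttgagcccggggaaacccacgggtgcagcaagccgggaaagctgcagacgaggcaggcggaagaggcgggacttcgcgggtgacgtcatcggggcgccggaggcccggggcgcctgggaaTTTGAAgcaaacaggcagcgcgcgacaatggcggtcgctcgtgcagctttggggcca

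RRM2 holds 3 CCAAT matches, at -123, -93 and -66 from the start, and TTTAAA at -30. TK1 has a like arrangement, with 2 CCAAT matches on the opposite strand at -77 and -46, TTTAAA at -27 and an E2F-type core at -12. TYMS has neither CCAAT nor TTTAAA and a single E2F-type core at -39. At least 3 CCAAT matches occur in 3.26% of all 35116 promoter windows of this length, and at least 1 in 34.6%. CCAAT was found for 5 of the 9 genes (RRM1, RRM2, TK1, DTYMK and CAD) and in 6 of their 14 windows. An E2F-type core, held by 13% of all windows, was found in 6 of the 14. It was found for 6 genes (RRM1, RRM2, TYMS, TK1, DUT and DCK). A gene with several windows can match in any of them, so only the counts of windows compare with the shares of all windows. For RRM2 the E2F-type match lies in another window, upstream of the one printed. DCK holds 3 such cores. CHR-type letters, held by 16.4% of all windows, were found in 4 of the 14. They belonged to 4 genes, RRM1 and DTYMK with large falls and DUT and UMPS with small ones. TTTAAA, held by 12.2% of all windows, was found for RRM2 and TK1, in 3 of the 14. In UMPS 2 CHR-type matches are the only ones marked, and DUT has 2 of them, at -214 and -129, beside 2 E2F-type cores at -42 and -26. GC boxes (GGGCGG) were also found, for 7 of the 9 genes and in 10 of the 14 windows, against 45% of all windows. The 14 windows hold 1 E-box (CACGTG), in DCK, against 7.26% of all windows. No match to one motif overlapped a match to another. The motifs were chosen with the sequences in view, windows of 1 gene can overlap, and a match is a run of letters and not a measured site.

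**Figure D2:**
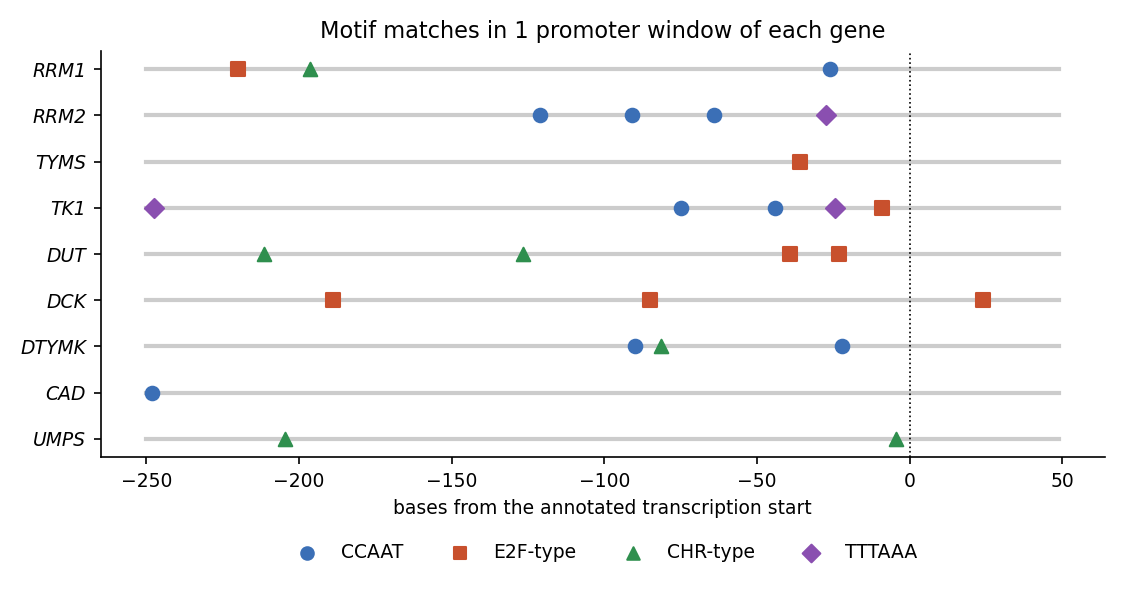
Position of motif matches, in bases from the annotated start (dotted line), in 1 window of 300 bases for each of the 9 genes. RRM2 and TK1 show CCAAT matches followed by TTTAAA, at -30 and -27, whereas TYMS and DCK show E2F-type cores without CCAAT and UMPS shows CHR-type matches alone.

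RRM1 and RRM2 form ribonucleotide reductase, RRM1 as the large catalytic subunit and RRM2 as the small subunit that carries the radical. RRM2 (ENSG00000171848, plus strand of chromosome 2 from 10120698 to 10211725, GRCh38) was expressed at 33.8, 33 and 36.2 FPKM in NC and at 9.16, 8.61 and 8.04 FPKM in siGDF15. It fell 3.71-fold (standard error of the log2 fold change 0.0641, edgeR adjusted p = 4.5e-07), the largest fall of the 9 and rank 48 among all tested genes. RRM1 (ENSG00000167325, chromosome 11 from 4094707 to 4138875) was at 42.9, 43.1 and 43.3 FPKM in NC, the tightest group of the 9 with a coefficient of variation of 0.421%. In siGDF15 it was at 17.5, 16.4 and 14.9 FPKM, a log2 fold change of -1.30 (standard error 0.0615, edgeR adjusted p = 1.2e-06). Both subunits thus fell, and RRM2 fell further: the FPKM ratio of RRM2 to RRM1 was 0.788, 0.766 and 0.836 in NC and 0.523, 0.525 and 0.539 in siGDF15. This is a change of -0.59 on the log2 scale, in a quantity that does not depend on how the libraries are scaled. RRM2B, an alternative small subunit known as a p53 target and used for repair and mitochondrial DNA outside S phase, was also lower, with 21.0, 20.2 and 18.9 FPKM in NC and 13.0, 10.8 and 11.8 FPKM in siGDF15 (log2 fold change -0.65, standard error 0.0683, edgeR adjusted p = 7.2e-05). In NC the RRM2 transcript exceeded that of RRM2B, with ratios of 1.61, 1.63 and 1.92. In siGDF15 the order in FPKM was turned, with ratios of 0.705, 0.794 and 0.683. The order in counts was not, with 6294, 4552 and 5517 for RRM2 and 5253, 3377 and 4757 for RRM2B in siGDF15. FPKM depends on the length assigned to a gene. The length implied by count over FPKM was 1.83 times that of the median tested gene for RRM2 and 1.08 times for RRM2B. The ratio in 1 group, and whether it lies above 1, thus carries these lengths, while its change between groups does not. A list of reductants held 6 tested thioredoxin and glutathione system genes, and whether each serves this enzyme was not tested. None was lower and 2 were higher, TXN2 with a log2 fold change of 0.29 and TXNRD1 with 0.22. Of all tested genes, 31.4% were lower and 30% higher. The call for TXNRD1 was lost with total count scaling (adjusted p = 0.17 from edgeR), and on leaving out any 1 siGDF15 library (adjusted p = 0.066, 0.059 and 0.064 for replicates 1 to 3, edgeR).

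The route to thymidylate fell as well. TYMS, thymidylate synthase and the target of fluoropyrimidine drugs (ENSG00000176890, chromosome 18 from 657653 to 673578), was expressed at 76.7, 75 and 84.3 FPKM in NC and at 26.0, 25.0 and 22.1 FPKM in siGDF15. It had the highest level of the 9 in both groups. Its log2 fold change was -1.59 (standard error 0.0763, edgeR adjusted p = 1.3e-06). ENOSF1, which overlaps the end of TYMS on the opposite strand, had 7.45 ± 0.197 FPKM in NC against 5.45 ± 0.232 FPKM after silencing. The library protocol keeps the strand, but whether counting used it is not given in the sources used here, so reads of the shared stretch are uncertain. Of the serine hydroxymethyltransferases, which load the folate that thymidylate synthase uses, the mitochondrial SHMT2 fell (log2 fold change -0.68) and the cytosolic SHMT1 rose (0.52).

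DUT hydrolyses dUTP, which keeps uracil out of DNA and supplies the substrate of thymidylate synthase (ENSG00000128951, chromosome 15 from 48331011 to 48343373). It was expressed at 18.4, 18.5 and 16.8 FPKM in NC and at 10.9, 9.58 and 10.1 FPKM in siGDF15, a log2 fold change of -0.71 (standard error 0.0633, edgeR adjusted p = 2.9e-05). Its fall was smaller than that of TYMS, and the ratio of TYMS to DUT went from 4.16, 4.06 and 5.01 in NC to 2.39, 2.61 and 2.19 in siGDF15. DTYMK phosphorylates thymidylate and joins the synthesis and salvage routes (ENSG00000168393, minus strand of chromosome 2 from 241675747 to 241686944). It was at 28.6, 26.1 and 29.0 FPKM in NC and at 12.8, 12.4 and 12.6 FPKM in siGDF15, a log2 fold change of -1.04 (standard error 0.0618, edgeR adjusted p = 3.3e-06). DTYMK lay nearest to the threshold of 1 and kept to its outer side under all 16 alternative settings, from -1.14 to -1.01. The ratio of TYMS to DTYMK changed by -0.55 on the log2 scale. Processed pseudogenes of the members with a row of their own (7, of RRM2, DUT and TYMS) reached at most 0.35 FPKM, and how reads shared with them were assigned is not given in the sources used here.

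TK1 and DCK salvage deoxynucleosides in the cytosol. TK1, thymidine kinase of S phase (ENSG00000167900, minus strand of chromosome 17 from 78174091 to 78187233), was expressed at 51.6, 52.2 and 54.7 FPKM in NC and at 21.1, 20 and 19.1 FPKM in siGDF15 (log2 fold change -1.29, standard error 0.0561, edgeR adjusted p = 8.6e-07). DCK, which phosphorylates deoxycytidine and activates drugs such as cytarabine and gemcitabine (ENSG00000156136, chromosome 4 from 70992538 to 71030914), was at 16, 17.2 and 16.9 FPKM in NC and at 7.69, 6.46 and 6.81 FPKM in siGDF15 (log2 fold change -1.15, standard error 0.0731, edgeR adjusted p = 4.7e-06). Neither mitochondrial counterpart was lower. TK2 was at 2.06, 2.45 and 1.62 FPKM in NC and at 2.81, 2.66 and 2.87 FPKM in siGDF15, a log2 fold change of 0.55 (standard error 0.128, edgeR adjusted p = 0.0058), so that it rose while TK1 fell. DGUOK was at 22.9, 21.3 and 22.7 FPKM in NC and at 22.4, 21.9 and 21.4 FPKM in siGDF15, with overlapping groups and no call (log2 fold change 0.08, standard error 0.0588, edgeR adjusted p = 0.27), and its sign turned to -0.02 with total count scaling. The ratio of TK1 to TK2 was 25.0, 21.3 and 33.7 in NC against 7.51, 7.51 and 6.65 in siGDF15. That of DCK to DGUOK was 0.699, 0.805 and 0.746 in NC and 0.343, 0.295 and 0.318 in siGDF15. These are changes of -1.86 and -1.24 on the log2 scale, in each case with no overlap between the groups.

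**Figure D3:**
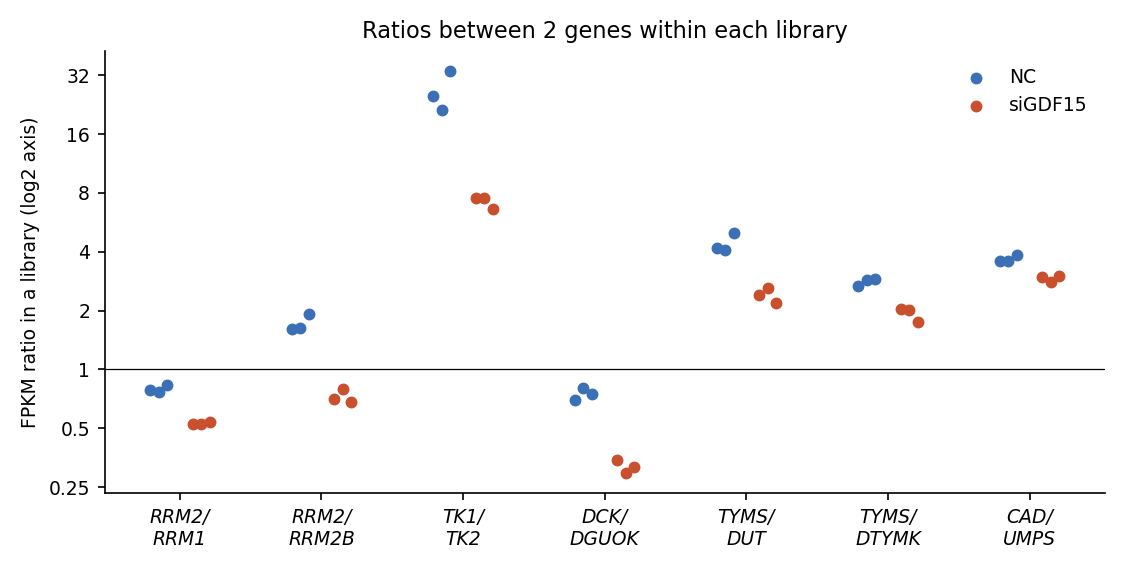
FPKM ratio of 2 genes within each library (log2 axis), with 1 point per library, NC in blue and siGDF15 in red. All 7 ratios are lower in the 3 siGDF15 libraries than in the 3 NC libraries, from a change of -1.86 on the log2 scale for TK1 to TK2 to -0.33 for CAD to UMPS, and RRM2 to RRM2B crosses the line at 1. In counts RRM2 stayed above RRM2B in every library.

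In pyrimidine ring synthesis, both members fell by less than 1 on the log2 scale. CAD, a single protein that carries out the opening steps of the pathway (ENSG00000084774, chromosome 2 from 27217369 to 27243943), was expressed at 22.9, 20.3 and 26.5 FPKM in NC and at 12.9, 12.8 and 13.1 FPKM in siGDF15. It had the widest NC group, with a coefficient of variation of 13.3%, and a log2 fold change of -0.74 (standard error 0.0900, edgeR adjusted p = 1.6e-04). UMPS, which makes uridine monophosphate in the last steps (ENSG00000114491, chromosome 3 from 124730433 to 124749273), was at 6.40, 5.68 and 6.87 FPKM in NC and at 4.36, 4.56 and 4.34 FPKM in siGDF15, the lowest level and the smallest change of the 9 (log2 fold change -0.41, standard error 0.0815, edgeR adjusted p = 0.0025). DHODH, the mitochondrial enzyme between them, was at 2.03, 1.78 and 2.09 FPKM in NC and 1.56, 1.76 and 1.59 FPKM in siGDF15 and was not called (log2 fold change -0.16, standard error 0.0993, edgeR adjusted p = 0.20). With total count scaling its log2 fold change was -0.26 and its adjusted p 0.045 (edgeR). The ratio of CAD to UMPS was 3.59, 3.58 and 3.86 in NC and 2.97, 2.80 and 3.02 in siGDF15, a change of -0.33 on the log2 scale. CTP synthases, which turn UTP into CTP, were lower, CTPS2 with a log2 fold change of -0.75 (edgeR adjusted p = 1.2e-04) and CTPS1 with -0.55 (edgeR adjusted p = 0.0013). Over the list of ribopyrimidine synthesis and salvage, 5 of 7 tested genes were lower, none was higher and the median was -0.36. Beside this stand 31.4% lower and 30% higher among all tested genes. UCK1, a uridine-cytidine kinase of this list, had a log2 fold change of -0.36.

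Among the 9 genes the order of levels in NC was TYMS, TK1, RRM1, RRM2, DTYMK, CAD, DUT, DCK and UMPS, where DTYMK and CAD, and DUT and DCK, overlapped. In siGDF15 it was TYMS, TK1, RRM1, CAD, DTYMK, DUT, RRM2, DCK and UMPS, where only the neighbours CAD and DTYMK overlapped. RRM2 moved from the fourth place to the seventh. By size of fall the order was RRM2, TYMS, RRM1, TK1, DCK, DTYMK, CAD, DUT and UMPS. Within libraries, the ratio of RRM2 to TYMS, of TYMS to RRM1 and of DTYMK to CAD separated the groups, with log2 changes of -0.31, -0.28 and -0.31. The ratios of the other neighbours in this order overlapped, and that of RRM1 to TK1 changed by -0.01. All 7 ratios fixed for testing had an exact permutation p of 0.1 (two-sided), the smallest that 3 libraries against 3 allow, and an adjusted p of 0.1 over the 7. Among the libraries, NC replicate 3 was the highest of its group for 7 of the 9 genes and siGDF15 replicate 1 for 7 of the 9. The counts behind these values ranged from 1158, for DCK in siGDF15 replicate 2, to 24800, for RRM2 in NC replicate 3. No member changed its call when any 1 library was left out, and the log2 fold change of CAD moved most, to between -0.84 and -0.63.

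**Figure D4:**
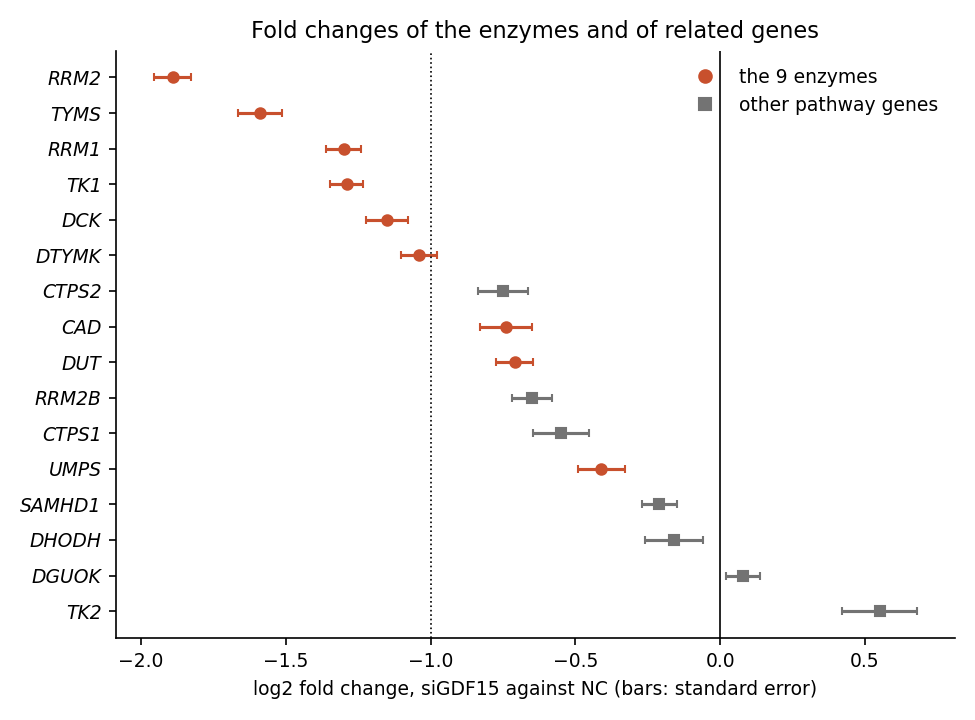
Log2 fold change of siGDF15 against NC from edgeR, with standard errors as bars, for the 9 enzymes (red circles) and 7 related genes (grey squares), with a dotted line at -1. RRM2 at -1.89 and TYMS at -1.59 lie farthest left, CTPS2 at -0.75 lies beside CAD at -0.74, and DGUOK at 0.08 and TK2 at 0.55 lie on the other side of 0.

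Over 64 further tested genes of nucleotide metabolism, 31 were lower and 15 were higher, 18 were not called and the median log2 fold change was -0.20, which makes 48.4% lower beside 31.4% of all tested genes. With total count scaling 8 were higher in place of 15, and without siGDF15 replicate 3 it was 9. In the KEGG pathway of pyrimidine metabolism, as annotated in the deposited table, 15 of 33 tested genes outside the 9 were lower and 10 were higher, with a median of -0.16. Relatives of the reductase and the kinases had 4 genes lower and 4 higher of 10 tested. Among them, the nucleoside diphosphate kinase NME2 fell with a log2 fold change of -0.51 and NME3 rose with 0.55. NME1 and NME2 are neighbouring, similar genes, and a further gene of the table, NME1-NME2, reaches across both, so their split of reads is uncertain. NME1-NME2 was at 13, 44 and 43.4 FPKM in NC and at 41.8, 30.8 and 28.5 FPKM in siGDF15. CMPK2, the mitochondrial pyrimidine kinase, had 0.123 ± 0.138 FPKM in NC against 0.168 ± 0.0241 FPKM after silencing and was too low to be tested.

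In a list of enzymes that break down deoxynucleotides, pyrimidines and other nucleotides, results were mixed, with 6 of 12 tested genes lower and 4 higher. The shares of all tested genes were 31.4% lower and 30% higher. NUDT1, which removes oxidised purine nucleotides from the pool, fell with a log2 fold change of -0.92 and NT5C3B, a nucleotidase, with -0.59, whereas the nucleotidase NT5C2 rose with 0.61 and ITPA, which hydrolyses inosine triphosphate, with 0.39. SAMHD1, the dNTP hydrolase that limits the pool in resting cells, was lower and not higher: 2.77, 2.55 and 2.62 FPKM in NC and 2.20, 2.05 and 2.13 FPKM in siGDF15 (log2 fold change -0.21, standard error 0.0604, edgeR adjusted p = 0.015). That call was lost without NC replicate 1 (adjusted p = 0.081, edgeR) and without siGDF15 replicate 2 (adjusted p = 0.069, edgeR). Of the nucleoside carriers 3 of 8 were expressed enough to be tested, and the equilibrative transporter SLC29A1, through which nucleosides enter the cell, fell from 26.1 ± 2.43 to 13 ± 0.24 FPKM, or -0.90 on the log2 scale (edgeR adjusted p = 1.5e-05).

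In purine synthesis, 10 of 12 tested genes were lower and none was higher, with a median log2 fold change of -0.50. PRPS2, which makes the ribose phosphate donor of both ring pathways, had -0.88 and GMPS, the last enzyme to GMP, -0.66. Purine salvage was mixed, with 2 genes lower and 4 higher of 9 tested. Among all tested genes 31.4% were lower and 30% were higher. PNP, which releases bases from purine nucleosides, fell from 17.6 ± 1.27 to 7.09 ± 0.249 FPKM, or -1.20 on the log2 scale, and HPRT1, which salvages hypoxanthine and guanine, had -0.55. APRT, which salvages adenine, rose with 0.42, and AMPD2, an AMP deaminase, with 0.21. The call for AMPD2 was lost under 4 of the 16 alternative settings, among them total count scaling (adjusted p = 0.081, edgeR).

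**Figure D5:**
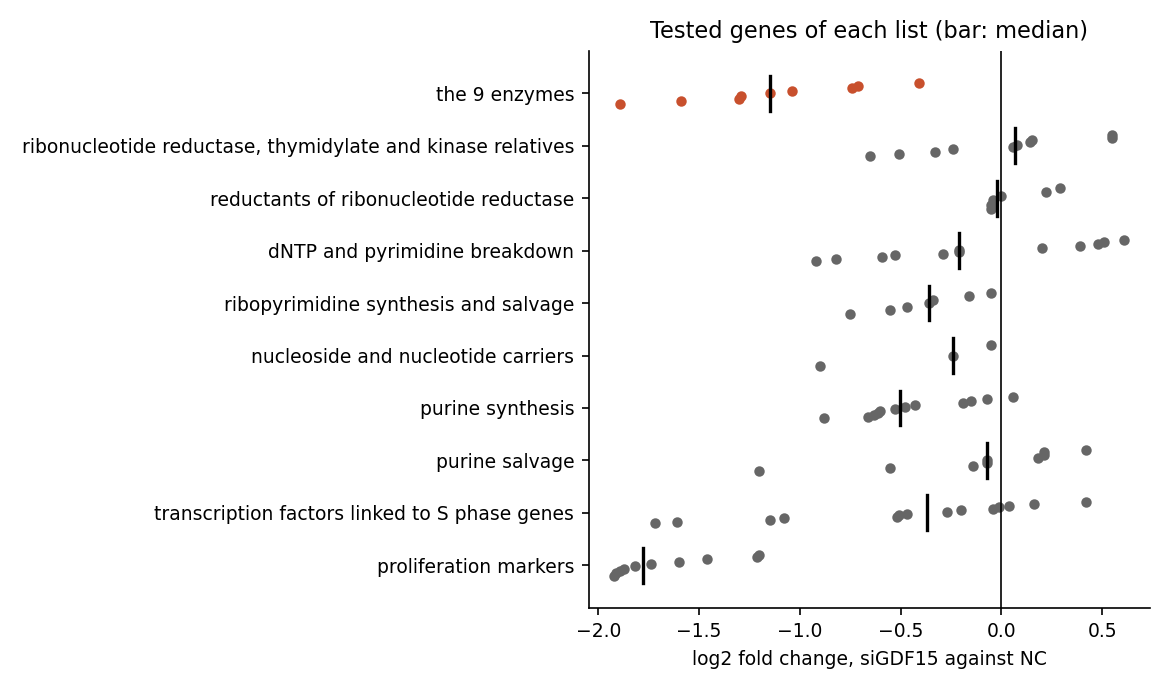
Log2 fold change of siGDF15 against NC for each tested gene of the 9 enzymes (red) and of gene lists (grey), with a black bar at the median of each. The 9 enzymes have a median of -1.15, between those of purine synthesis (-0.50) and of the proliferation markers (-1.78). The genes listed as reductants of ribonucleotide reductase lie around 0.

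The genes whose pattern over the 6 libraries was most like the mean of the 9 (Pearson correlation of log2 CPM, counts scaled to library size, with the mean of the standardised members) were LMNB2, NETO2, KPNA2, CACYBP and TPM3, with r from 0.99963 to 0.99985. LMNB2, a lamin of the nuclear envelope, had 70.6 ± 4.25 FPKM in NC against 31.5 ± 0.917 FPKM after silencing, and KPNA2, a nuclear import receptor, 57.4 ± 3.42 against 23.5 ± 1.04 FPKM. CACYBP, a calcyclin binding protein, had a log2 fold change of -0.97, NETO2 of -1.18 and TPM3, a tropomyosin, of -0.44. The 6 points share the difference between the groups, and 635 called genes outside the 9 had a correlation above 0.99.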

How the data were processed

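Poly(A) RNA of 3 NC and 3 siGDF15 libraries was sequenced as read pairs of 150 bases. The authors' processing notes name fastp, HISAT2, StringTie and edgeR and the build GRCh38, and versions are not given in the sources used here. The authors deposited FPKM values (fragments per transcript length and library size). The authors also deposited expected counts, whole numbers derived from coverage and not normalized, in which 1 read pair appears to be worth 4 counts (4 was the most frequent value from 1 to 20, with 15.6%). Every column of values was used.

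Counts were tested with edgeR 4.0.16 (R 4.3.3), TMM normalization, a filter on a mean of at least 1 FPKM, a two-sided quasi-likelihood test and Benjamini-Hochberg adjustment over all genes tested. The standard error of a log2 fold change is its size over the square root of F. limma 3.58.1 and DESeq2 1.42.0 served as alternatives. Ratios were computed from FPKM and tested by exact permutation (scipy 1.17.1). The test was checked on simulated counts in which few genes changed, as many up as down. That check does not bear on the choice of scaling. Named genes were all members, fixed related genes, the 2 genes of smallest adjusted p in each direction per list, overlapping genes and the 5 most alike. DGUOK, DHODH and CMPK2 are among the fixed related genes. MKI67, NME1, NME1-NME2, the pseudogenes and the markers were named outside that rule. Some genes of the rule and lists are not reported here. The members and lists were chosen with earlier results of these data known. The methods call the 3 libraries of a group biological replicates, with no further detail, so p-values measure the spread between these libraries. The depth was 51738814 to 68025163 counts per library, which is 12934704 to 17006291 read pairs if each is worth 4 counts. The main fit used the counts undivided, with 3721 genes lower and 3565 higher. Dividing the counts by 4 gave 3710 and 3566. The precision of each value is given by its SD or standard error over n = 3 libraries per group.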

Additional observations from a re-analysis of the deposited data

How the results depend on the processing

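Of the 9 members, 9 were lower, 0 higher and 6 past both thresholds under all 16 alternatives, and the median of the members ranged from -1.25 to -1.11. The total count in place of TMM moved the median of all tested genes to -0.099. With limma it was -0.100 at a pseudocount of 0.1 and -0.081 at a pseudocount of 1, and with no filter it was 0.073. The members remained lower relative to these shifts. The number of tested genes past both thresholds, 927, was 1669 with a mean of at least 0.1 FPKM and 1659 with no filter, where more genes were tested, and 560 with limma on log2(FPKM + 1), where the pseudocount shrinks low genes. Leaving out 1 library gave 907 to 1010. Of the further genes of nucleotide metabolism, 15 were higher, and this count was 8 with total count scaling, 9 with no filter, and 7 with either limma setting; leaving out 1 library gave 9 (siGDF15 replicate 3) to 16. The cause of these shifts was not tested. DGUOK turned to -0.02 with total count scaling, to -0.02 with limma at a pseudocount of 1 and to -0.03 at 0.1.

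Replicate numbers did not pair the libraries (correlations of deviations for equal numbers 0.0276, -0.0753 and 0.0458). With a replicate block, 9 members were lower and 3515 genes were lower and 3391 higher, in place of 3721 and 3565. Of the further genes of nucleotide metabolism 30 were lower in place of 31 and 15 were higher as before, and no gene named in the report and refitted with the block changed its call. The 7 ratios kept their sign under the 7 alternatives run for them, CPM in place of FPKM and leaving out each library in turn. DHODH, with a standard error of 0.0993, was not called in the report and its change of -0.16 is not resolved at that error.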

Other observations

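Of 14 transcription factor genes linked to S phase expression, all tested, 9 were lower and 1 was higher in the siGDF15 group. Among all tested genes 31.4% were called lower and 30% higher. The E2F genes differed among themselves: E2F2 had a log2 fold change of -1.72, E2F8 of -1.61, E2F1 of -1.15 and E2F7 of -1.08, whereas E2F3 was at 10.9 FPKM in NC and 9.84 FPKM in siGDF15 and was not called (edgeR adjusted p = 0.55). E2F8 had 6.33 ± 0.210 FPKM in NC against 1.92 ± 0.145 FPKM after silencing. Of the subunits of NF-Y, which binds CCAAT, NFYA had -0.47 and NFYB -0.27, both called, and NFYC 0.04 with no call (edgeR adjusted p = 0.52). The E2F partner TFDP1 had -0.52 and TFDP2 rose with 0.42. MYC, known as an activator of CAD, had 32.5 ± 8.76 FPKM in NC against 30.0 ± 0.275 FPKM after silencing (SD, n = 3), with overlapping groups and no call (edgeR adjusted p = 0.97). E2F2, E2F3, E2F7, TFDP1, MYC and the NF-Y genes were picked for mention after their values were seen.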
